A study of Mus musculus with 8 samples.

Results

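The comparison described here set dopaminergic neurons of the substantia nigra pars compacta (SNc) against those of the ventral tegmental area (VTA) in newborn mice without Pitx3, to read which regional differences in expression were present in the absence of this transcription factor. It rests on the 2 SNc KO arrays and the 2 VTA KO arrays, which are 4 of the 8 arrays of the series. SNc KO and VTA KO cells came from C57Bl/6 pups of genotype Pitx3-/-;Th-EGFP+/-, and SNc WT and VTA WT cells, used as background, from Pitx3+/+;Th-EGFP+/- pups, all aged P1 to P4. All 4 groups therefore carried the Th-EGFP transgene, in which the Th gene drives the fluorescent protein, and cells were sorted as live (propidium iodide-negative) and EGFP+ after microdissection and papain digestion. Each sample pooled several sorted batches, and its amplified RNA was read on 1 Affymetrix Mouse Gene ST array. Of 35512 probesets, 14111 carried 1 gene symbol and reached a group mean of 60 on the linear scale (5.91 as log2 signal) in SNc KO or VTA KO, which gave 12762 genes. By the methods, RNA was extracted and hybridized in duplicate from each of the 4 cell preparations, so the 2 arrays of a group may be technical repeats of 1 preparation, and each standard deviation and p-value below covers the spread between those duplicates and not that between animals. The groups are also mixtures of neurons as a model: as the study cites from earlier work, the SNc of Pitx3-/- pups at birth lacks the neurons that need Pitx3 and keeps dorsal ones, whereas in the VTA such neurons are still present.

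Midbrain dopaminergic (mDA) neurons of the SNc project mainly to the dorsal striatum and those of the VTA to limbic and cortical targets, and each region holds several subtypes with their own transcription factors, peptides and channels. Pitx3 is a homeodomain transcription factor of mDA neurons, needed above all by the ventral SNc neurons that are the most vulnerable in Parkinson disease. Neuropeptides such as neurotensin, galanin and tachykinins are stored beside classical transmitters and are restricted to subtypes of neurons, which makes them useful marks of neuronal diversity.

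Th, which encodes tyrosine hydroxylase and drives the sorted fluorescence, had 10.01 and 10.17 as log2 signal in SNc KO and 10.16 and 10.34 in VTA KO (log2 difference -0.16, SNc KO minus VTA KO, adjusted p = 0.560 from limma). All 12 measured mDA neuron markers exceeded a signal of 60, with 0 called by limma (at an unadjusted p under 0.05, 1 higher and 1 lower) and a median log2 difference of -0.09. Of the markers of other transmitter classes, 0 of 3 noradrenergic, 1 of 4 serotonergic, 4 of 8 glutamatergic and 7 of 11 GABAergic genes exceeded 60 in SNc KO or VTA KO. Pitx3 itself was at 7.87 and 7.94 in SNc KO, 8.08 and 7.92 in VTA KO, 7.72 and 7.63 in SNc WT and 8.10 and 7.84 in VTA WT. Its signal was not lower on the arrays labelled KO. Neither the deleted part of the gene nor the part read by its probeset is given in the sources used here, so these signals check no label. Array medians lay between 6.11 and 6.24 on the log2 scale over the series. The VTA KO duplicates lay farthest apart, with a pooled standard deviation of 0.376 over the tested probesets, against 0.252 in SNc KO, 0.242 in SNc WT and 0.241 in VTA WT.

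Limma took all 8 arrays in 1 model of 4 group means over 22112 probesets, and a call needs a p under 0.05 after Benjamini-Hochberg adjustment over all of them. In SNc KO against VTA KO, 9 probesets (0.0407%) were higher and 24 (0.109%) lower. With 1 gene symbol these were 6 genes higher and 8 lower. The higher genes were led by neuropeptides and transcription factors, and 7 of the lower genes were also called lower in the WT comparison, of which Mia, Dynlrb2 and Enkur are in the list of ependymal and motile cilium markers. At an unadjusted p under 0.05, 2152 probesets (9.73%) were higher and 1727 (7.81%) lower. Of the lower probesets without 1 symbol, 13 held identical values on all arrays, so the lower calls amount to 12 distinct measurements. The calls rested on the full set of arrays: without VTA KO replicate 2 there were 753 higher and 575 lower, and without any 1 of the other 7 arrays 0 in each direction (1241 to 1829 higher and 983 to 1515 lower at an unadjusted p under 0.05). With only the 4 KO arrays in the model, 0 were called, and 1278 were higher and 1160 lower at an unadjusted p under 0.05. Both SNc KO arrays lay above both VTA KO arrays in 26.8% of the tested probesets and below them in 21.8%. Over the 12762 genes, with 1 probeset each, they lay above in 33.3% and below in 17.2%. These gene shares are the background for each statement that the arrays of a gene did not overlap.

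The sequences before the transcription start are shown for the 2 called peptide genes and for the only 2 genes among the named higher ones that hold the motif TAATCC, which homeodomain factors of the bicoid class such as Pitx3 and Otx2 bind. Each line gives 200 bases upstream of a RefSeq start (GRCm38.p6), 5′ to 3′ along the gene, with the motif in capitals on whichever strand it lies. The regions are chr10:102490419-102490618 (minus strand) for Nts, chr19:3414545-3414744 (minus strand) for Gal, chr19:55895121-55895320 (plus strand) for the more downstream of 2 starts of Tcf7l2, and chr13:116309689-116309888 (minus strand) for Isl1.
Nts: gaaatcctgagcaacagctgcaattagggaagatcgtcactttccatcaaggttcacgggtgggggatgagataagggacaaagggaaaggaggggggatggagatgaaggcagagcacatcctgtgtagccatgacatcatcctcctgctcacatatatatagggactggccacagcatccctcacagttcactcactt
Gal: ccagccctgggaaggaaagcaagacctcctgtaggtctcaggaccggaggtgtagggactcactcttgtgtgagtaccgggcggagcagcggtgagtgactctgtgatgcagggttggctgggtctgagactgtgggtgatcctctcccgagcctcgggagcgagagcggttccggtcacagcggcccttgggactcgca
Tcf7l2: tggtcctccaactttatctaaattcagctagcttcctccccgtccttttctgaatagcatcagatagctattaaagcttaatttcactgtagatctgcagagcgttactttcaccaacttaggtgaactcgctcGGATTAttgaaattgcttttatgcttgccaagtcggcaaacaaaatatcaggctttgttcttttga
Isl1: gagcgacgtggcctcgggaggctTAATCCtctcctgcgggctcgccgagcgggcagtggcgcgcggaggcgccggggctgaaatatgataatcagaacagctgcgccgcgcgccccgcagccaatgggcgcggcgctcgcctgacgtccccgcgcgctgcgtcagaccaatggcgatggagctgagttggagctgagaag
In Tcf7l2 the motif lies on the opposite strand and begins 66 bases before the start, and in Isl1 it lies on the gene's own strand, 177 bases before the start. Over the 250 bases before each start, searched on both strands, TAATCC was in 1 of 7 promoters of the 6 genes called higher (14.3%), in 0 of 7 promoters of 7 genes called lower, and in 2054 of all 32851 promoters (6.25%). A match is a description of letters and was not tested as a site. The Nts and Gal windows do not hold these letters, and which start of Tcf7l2 its probeset reads is not known here.

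Nts, which encodes neurotensin, a peptide that modulates dopamine signalling, was the gene with the largest called difference. It had log2 signals of 8.78 and 9.12 in SNc KO, against 5.46 and 6.08 in VTA KO. The arrays did not overlap, and the VTA KO mean lay below the signal minimum, with 1 of its arrays under it. The group means were 8.95 ± 0.24 in SNc KO and 5.77 ± 0.44 in VTA KO (SD, n = 2 each), and limma's log2 difference was 3.19 (standard error 0.22, adjusted p = 0.0402), a size that depends on a VTA KO signal below that minimum. In WT, Nts had 7.86 and 7.97 in SNc and 7.12 and 7.10 in VTA, a log2 difference of 0.80 (adjusted p = 0.152). The regional difference itself differed between genotypes by 2.38 with an unadjusted p of 0.000191 and an adjusted p of 0.145, which did not pass.

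Gal, encoding galanin, an inhibitory peptide of many brainstem and hypothalamic neurons, had 8.78 and 8.68 in SNc KO and 6.12 and 6.64 in VTA KO. Both SNc KO arrays were well above both VTA KO arrays. Its log2 difference was 2.35 (standard error 0.20, adjusted p = 0.0402), or 5.10-fold, against 0.70 between SNc WT and VTA WT (adjusted p = 0.166). Both peptides were thus highest in SNc KO and lowest in VTA KO among the 4 groups.

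Tcf7l2, the transcription factor at the end of canonical Wnt signalling and a mark of thalamic and pretectal neurons, had 9.62 and 9.74 in SNc KO and 8.15 and 7.74 in VTA KO. The log2 difference of 1.73 (standard error 0.16, adjusted p = 0.0402) was nearly the same as that between SNc WT, at 9.15 and 9.27, and VTA WT, at 7.55 and 7.38 (1.75, adjusted p = 0.0165). It was the only gene called higher in both genotypes, and the difference between its regional differences was -0.01 (standard error 0.23).

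Lhx9, a LIM-homeodomain factor of developing forebrain and midbrain neurons, had 7.56 and 7.30 in SNc KO and 6.03 and 6.05 in VTA KO. Its log2 difference was 1.39 (standard error 0.13, adjusted p = 0.0402), and both WT groups, at 6.24 and 6.47 in SNc and 5.93 and 6.00 in VTA, lay nearer to the VTA KO level. Lin28b, an RNA-binding protein that blocks let-7 maturation, had 7.81 and 7.62 in SNc KO and 6.51 and 6.53 in VTA KO, which differ by 1.19 (standard error 0.13, adjusted p = 0.0426) against 0.83 in WT. Trhde, an ectoenzyme that degrades thyrotropin-releasing hormone, had 7.29 and 7.37 in SNc KO and 6.42 in both VTA KO arrays, which differ by 0.91 (standard error 0.10, adjusted p = 0.0426) against 0.08 in WT. None of these 6 genes passed the test of a different regional difference in KO than in WT (adjusted p = 0.145 to 0.994).

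**Figure D1:**
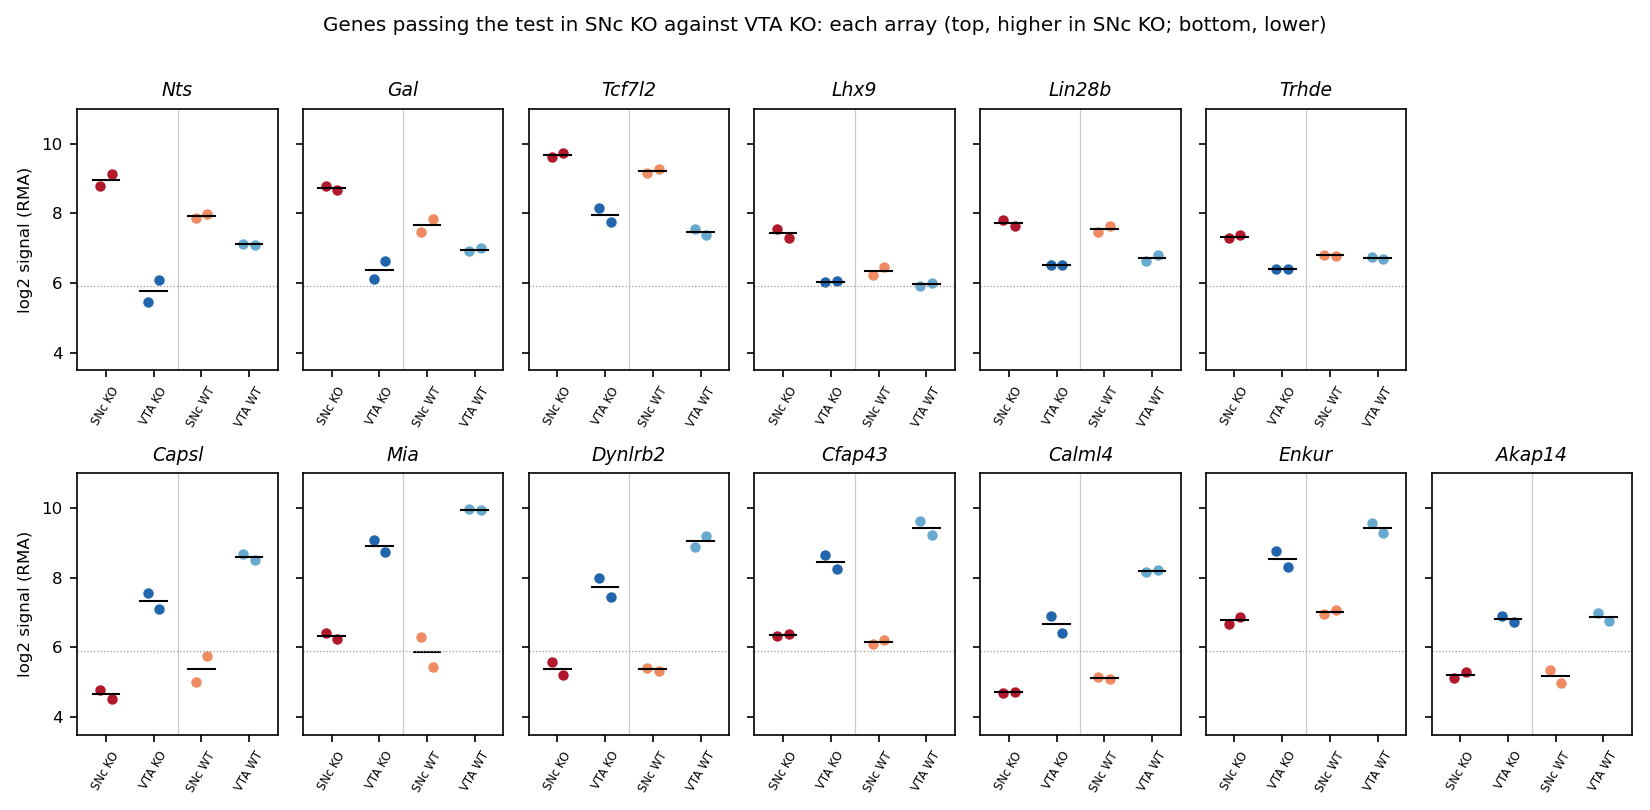
Log2 signal of each array (points) and group mean (lines) for the 13 genes called in SNc KO against VTA KO by their probeset of highest mean, in SNc KO, VTA KO, SNc WT and VTA WT. The dotted line is a linear signal of 60. In the upper row both SNc KO arrays lie above both VTA KO arrays, and in the lower row both lie below, where VTA WT is the highest group.

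Further genes with large differences did not pass the adjusted test. They were named by a rule that required an unadjusted p under 0.01 and arrays that did not overlap, so the lack of overlap adds no support. Among peptide genes, Tac1, the precursor of substance P, had 9.46 and 9.98 in SNc KO and 7.15 and 8.05 in VTA KO (log2 difference 2.12, adjusted p = 0.121). Crh, encoding corticotropin-releasing hormone, had 6.72 and 7.00 in SNc KO and 5.04 and 4.94 in VTA KO (1.87, adjusted p = 0.0594), whereas in WT it had 5.76 and 5.18 in SNc and 5.90 and 6.24 in VTA (-0.60). Its regional difference had opposite signs in the genotypes, by 2.47 on the log2 scale (adjusted p = 0.145 for that difference). The WT difference did not pass either (adjusted p = 0.234 from limma). All VTA KO and SNc WT signals of Crh lay below the signal minimum, on which these differences depend. Crh passed in the comparison of SNc KO with VTA KO once each array was centred on its median (adjusted p = 0.0493, against 0.0594 as deposited).

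Isl1, a LIM-homeodomain factor of motor, striatal and hypothalamic neurons, had 8.53 and 8.01 in SNc KO and 6.50 and 5.93 in VTA KO (log2 difference 2.06, adjusted p = 0.0602). Its values in SNc WT were 7.86 and 7.78 and in VTA WT 6.49 and 6.19, a difference of 1.48. Islr2, a membrane protein of growing axons, and Tfap2b, an AP-2 transcription factor, had log2 differences of 1.53 and 1.46 in KO and 1.74 and 1.66 in WT. Gng8, a G-protein gamma subunit, had 2.01 in KO and 1.28 in WT. The other fill of the naming rule, Gm14661, Nexn and Klhl4, ranged from 1.45 to 1.62 in KO (adjusted p = 0.121 to 0.183). The VTA KO means of Gm14661 and Nexn, at 4.91 and 4.92, lay below the signal minimum.

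Lists are given by the genes on the array and, where fewer, the genes over the signal filter that were tested. Over the 12762 genes, 6 were called higher and 7 lower by their probeset of highest mean, and by an unadjusted p under 0.05 11.7% were higher and 4.95% lower, the background for each list count that follows. Of 27 neuropeptide genes on the array 23 were tested, of which 2 were called higher (Nts and Gal) and 0 lower, and at an unadjusted p under 0.05 there were 6 higher and 3 lower. The median of the 27 genes was 0.01, beside -0.003 over all genes with 1 symbol, whatever their signal. Single peptides ran from -0.94 (Vip) to 3.19 (Nts). Sst, somatostatin, was abundant in all groups, at 10.41 and 10.28 in SNc KO and 9.50 and 8.91 in VTA KO (log2 difference 1.14, adjusted p = 0.123; 1.35 in WT). Npy, neuropeptide Y, had 0.62 in KO and 0.78 in WT. On the other side stood Vip, vasoactive intestinal peptide, with 6.61 and 6.11 in SNc KO and 6.95 and 7.65 in VTA KO (-0.94, adjusted p = 0.216).

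The list of 62 subset-restricted and positional transcription factors, of which 47 were tested, had 2 called higher (Tcf7l2 and Lhx9) and 0 lower, with 11 higher and 5 lower at an unadjusted p under 0.05 and a median of -0.01. Dlx5, a homeobox gene of GABAergic forebrain neurons, had 7.64 and 7.48 in SNc KO and 6.45 and 5.84 in VTA KO (log2 difference 1.42, adjusted p = 0.147). Pax6, a paired-box factor of forebrain and dorsal neural progenitors, had 8.07 and 7.38 in SNc KO and 6.48 and 6.63 in VTA KO (1.17, adjusted p = 0.134), with 1.05 in WT. The shared mDA factors differed less: of 13, 0 were called, the unadjusted p gave 2 higher and 1 lower, and the differences ran from -0.29 (En1) to 0.33 (Ebf3).

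Markers of GABAergic neurons on the array had a median log2 difference of 0.06, beside -0.003 over all genes with 1 symbol, whatever their signal. Their summed linear signal over 11 markers was 3148 and 2836 in SNc KO and 2412 and 1950 in VTA KO, against 1956 and 2094 in SNc WT and 1513 and 1485 in VTA WT, and most of the gap lay in Sst: without it the sums were 1791 and 1591 in SNc KO and 1685 and 1468 in VTA KO, which overlap. Gad1, a GABA-synthesizing enzyme, had 7.62 and 7.12 in SNc KO and 6.56 and 6.10 in VTA KO (log2 difference 1.04, adjusted p = 0.144), whereas Gad2 had -0.31 and the vesicular transporter Slc32a1 0.27. Of the 8 markers tested 0 were called, and by the unadjusted p Sst and Gad1 alone were higher and 0 lower. Glutamatergic markers, Lhx9 among them, summed to 1728 and 1682 in SNc KO and 1655 and 1547 in VTA KO, against 1078 and 1015 in SNc WT and 1301 and 1452 in VTA WT. The part of other neurons in the peptide and transcription factor differences was not tested. In pooled cells, fewer cells of a type and less RNA per cell cannot be told apart.

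Of the 8 genes called lower in SNc KO, Mia, Dynlrb2 and Enkur are in the list of ependymal and motile cilium markers. Dynlrb2, a light chain of ciliary dynein, had 5.59 and 5.20 in SNc KO and 8.00 and 7.44 in VTA KO, or -2.33 as log2 difference (standard error 0.23, adjusted p = 0.0402). In SNc KO it stayed below the signal minimum. Cfap43, a cilium- and flagellum-associated protein, had 6.34 and 6.39 in SNc KO and 8.66 and 8.25 in VTA KO (-2.09, standard error 0.19, adjusted p = 0.0402), and its 5 probesets ran from -3.60 to -2.03. The other probesets of Cfap43 did not pass (adjusted p = 0.0542 to 0.260 from limma). Most of their SNc KO values lay below the signal minimum. Enkur, enkurin, a protein of sperm and cilia, had 6.67 and 6.88 in SNc KO and 8.77 and 8.30 in VTA KO (-1.76, standard error 0.19, adjusted p = 0.0445).

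Capsl, a calcyphosine-like calcium-binding protein, had the largest fitted fall, close to that of Mia, with 4.78 and 4.52 in SNc KO and 7.56 and 7.10 in VTA KO (-2.68, standard error 0.27, adjusted p = 0.0402). Both SNc KO values lay below the signal minimum, on which the size of the difference depends. Mia, a small secreted protein, had 6.42 and 6.24 in SNc KO and 9.08 and 8.73 in VTA KO (-2.58, adjusted p = 0.0445). Calml4, a calmodulin-like protein (-1.95), and Akap14, an anchoring protein of protein kinase A (-1.60), completed the 7, and both lay below the signal minimum in SNc KO. All 7 were also called in the WT comparison, in the same direction, with log2 differences of -4.07 (Mia) to -1.70 (Akap14) there. In 6 of the 7 the WT difference was larger in size by 0.53 or more, Akap14 being the exception at 0.10, but the difference between genotypes did not pass for any of them (adjusted p = 0.344 to 0.919). Further large negative differences that did not pass were those of Pifo (-2.20, adjusted p = 0.0972), Ak7 (-1.69, adjusted p = 0.107), Iqca (-1.65, adjusted p = 0.185) and Fam216b (-2.05, adjusted p = 0.181). Trav7d-4, Snora75, Taar4 and A330023F24Rik ran from -2.24 to -1.67 and did not pass either. Except for A330023F24Rik, the SNc KO means of these and of Pifo, Ak7, Iqca and Fam216b lay below the signal minimum. The size of their differences depends on those low signals. Some VTA KO duplicates were also far apart, as in Trav7d-4 (6.10 and 7.81) and Fam216b (7.64 and 5.91). The eighth gene called lower, Hmcn1, was named after its values were seen: 1 of its probesets, not the one of highest mean, had -1.42 (adjusted p = 0.0402), while another had 2.02, so that its probesets disagree.

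The whole list of 36 ependymal and motile cilium markers, of which 32 were tested, had 3 called lower (Mia, Dynlrb2 and Enkur) and 0 called higher in KO, 19 lower and 0 higher by the unadjusted p, and a median log2 difference of -0.51 (-1.18 in WT). Their summed linear signal was 2692 and 2759 in SNc KO and 6664 and 4084 in VTA KO, against 2651 and 2532 in SNc WT and 10049 and 8388 in VTA WT. In SNc KO 15 and 16 of the 36 markers exceeded 60, and in VTA KO 30 and 23. The list's median was -0.34 when VTA KO replicate 1 was left out and -0.83 when VTA KO replicate 2 was. These markers belong to another cell type than the sorted neurons, and their part in the genes called lower was not tested.

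**Figure D2:**
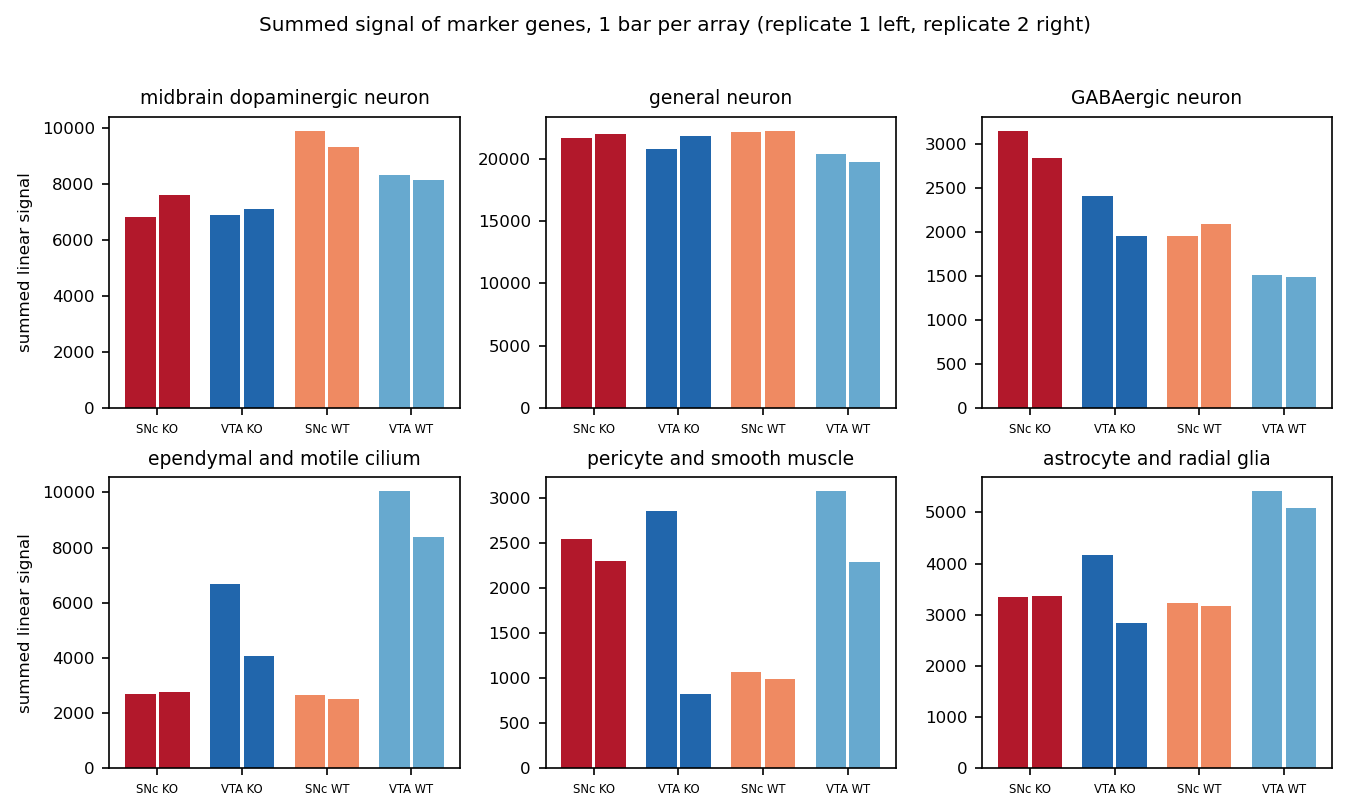
Summed linear signal (signal units) of the measured markers of 6 cell types, 1 bar per array, in SNc KO, VTA KO, SNc WT and VTA WT. Cilium markers are higher on both VTA KO arrays than on both SNc KO arrays, and pericyte markers differ between the 2 VTA KO arrays (2853 and 829).

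Pericyte and smooth muscle markers set the VTA KO arrays apart from each other. They summed to 2543 and 2298 in SNc KO and 2853 and 829 in VTA KO, against 1064 and 996 in SNc WT and 3075 and 2289 in VTA WT. Rgs5, a GTPase-activating protein typical of pericytes, had 10.16 and 9.98 in SNc KO and 10.29 and 6.22 in VTA KO, so its log2 difference of 1.81 (adjusted p = 0.430) rested on VTA KO replicate 2 and was -0.22 without it. The list's median of 0.24 became 0.98 when VTA KO replicate 1 was left out and -0.20 when VTA KO replicate 2 was. Of 13 markers tested 0 were called, and unadjusted p-values under 0.05 were found for 2, both higher. Astrocyte and radial glia markers, known from cells that line or fill the tissue, summed to 3347 and 3369 in SNc KO and 4170 and 2844 in VTA KO, where the same VTA KO array was the higher one, and 0 of 12 tested were called (1 higher and 2 lower by the unadjusted p).

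The regional differences of KO and WT were set beside each other over the 12762 genes, since they share no array. Across genes, which are not independent replicates and share the normalization and the model's spread, Pearson's r was 0.480, and 68.6% of the genes had the same sign in both. With VTA KO replicate 1 alone r was 0.512, and with VTA KO replicate 2 alone 0.283. The standard deviation over genes was 0.319 in KO and 0.370 in WT. A KO difference smaller in size than the WT difference was found in 51.1% of genes.

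At the thresholds of the study (unadjusted p of at most 0.05, fold of at least 1.5, signal of at least 60 in a group compared), 767 probesets (3.47%) were higher and 773 (3.5%) lower in SNc KO than in VTA KO, with limma's p in place of the study's own test, and 2.66% higher and 3.96% lower in the WT comparison. Of the 767 and 773 probesets, 463 and 261 carried 1 gene symbol. Over the 12762 genes, each by its probeset of highest mean, 403 were higher and 208 lower. Of the 403, 53 also met the thresholds as higher in SNc WT (13.2% of the KO list and 18.3% of the 289 WT genes), and 10 met them in the opposite direction. Of the 208, 99 also met them as lower in SNc WT (47.6% of the KO list and 22.4% of the 442 WT genes), and 1 in the opposite direction. The background for these counts is that 2.26% of the 12762 genes met the thresholds as higher in SNc WT and 3.46% as lower. By the limma call, the WT comparison had 18 probesets higher (0.0814%) and 79 lower (0.357%), of which those with 1 symbol made up 15 genes higher and 67 lower. Of those 15, 13 had the same sign in KO, with a median log2 difference of 0.38 in KO and 1.20 in WT. Of 71 probesets of the 67 lower genes, 65 had the same sign in KO, with medians of -0.72 in KO and -1.70 in WT, where part of the difference in size follows from their choice by the WT values.

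The test of the difference between the regional differences gave 0 called probesets in limma and at an unadjusted p under 0.05 1222 higher (5.53%) and 964 lower (4.36%). Without VTA KO replicate 1 it gave 11 higher and 2 lower. Postn, periostin of the extracellular matrix, came nearest among the named genes, with 8.58 and 8.80 in SNc KO and 7.51 and 7.67 in VTA KO (log2 difference 1.09), against 5.52 and 5.33 in SNc WT and 6.95 on both VTA WT arrays (-1.53). Its regional difference was thus opposite in sign in the genotypes, by 2.62 (standard error 0.18, adjusted p = 0.0995). Mgp, Gng11 and Ifitm3 had values of 2.68 to 2.77 for the same quantity (adjusted p = 0.344 to 0.375), each with VTA KO arrays more than 1.3 apart on the log2 scale. For Ifitm3 the difference between SNc KO and VTA KO was 0.41, and -0.32 without VTA KO replicate 2. On the other side Rbm11, an RNA-binding protein of brain, had -1.34 (adjusted p = 0.227), and Pdgfc, Fam210b, Mir680-1 and Olfr1045 ran from -3.57 to -1.27 (adjusted p = 0.352 to 0.381).

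**Figure D3:**
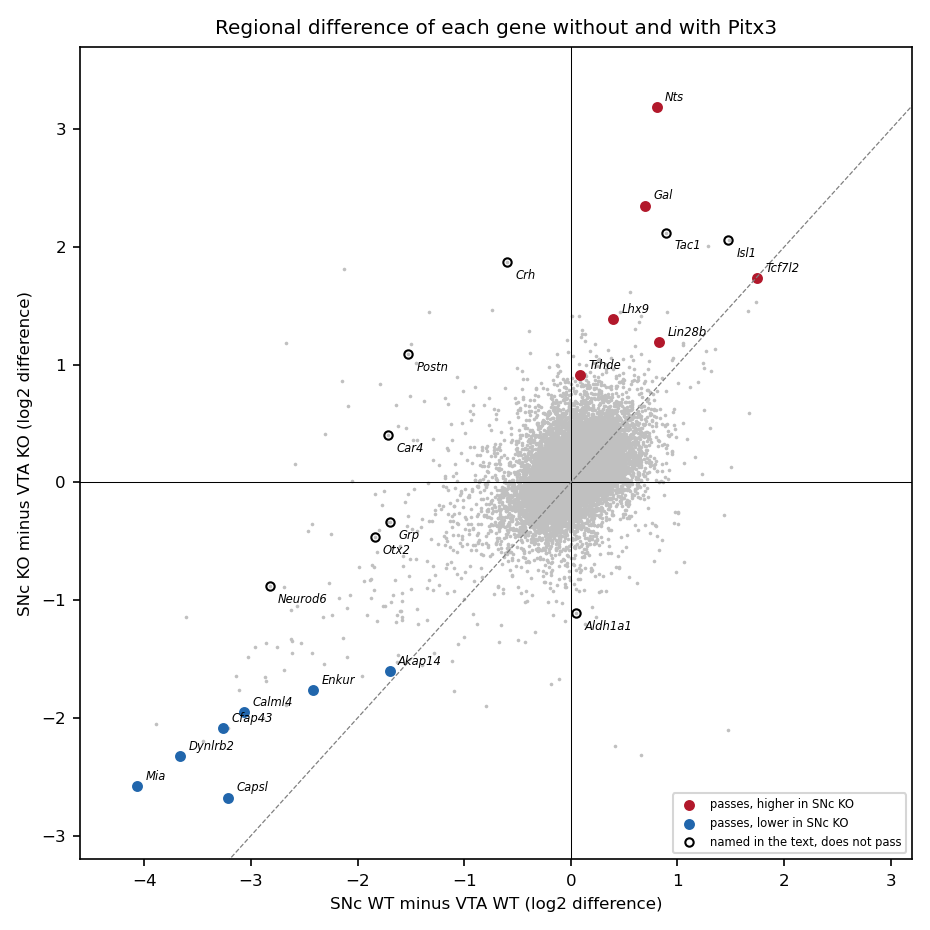
Log2 difference of each of 12762 genes between SNc KO and VTA KO (y axis) against that between SNc WT and VTA WT (x axis), with the dashed line where both are equal. Tcf7l2 lies on the line, Nts and Gal lie above it, and the 7 genes called lower by their probeset of highest mean lie to the lower left. The called Hmcn1 probeset, whose WT difference has the opposite sign, is not plotted.

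Markers of VTA and dorsal SNc neurons had regional differences smaller in size in KO than in WT for 18 of 24 genes, beside 51.1% over all genes. Part of this follows from their choice as genes that differ between the WT regions, in part on these arrays, and the test of the difference between genotypes called 0 of them. Of these 24 measured VTA and dorsal SNc markers, 8 were called lower in the WT comparison, whereas in KO 0 were called lower and 1, Nts, higher. The median of the list was -0.17 in KO and -0.71 in WT. Otx2, a homeodomain factor of medial mDA neurons, had 8.03 and 8.10 in SNc KO and 8.41 and 8.65 in VTA KO (log2 difference -0.46, adjusted p = 0.314), against 6.25 and 5.62 in SNc WT and 7.76 and 7.79 in VTA WT (-1.84, adjusted p = 0.0277). SNc KO thus lay close to the VTA groups for Otx2.

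Grp, gastrin-releasing peptide, had 8.64 and 8.82 in SNc KO and 9.10 and 9.02 in VTA KO (-0.33, against -1.69 in WT, and a difference of 1.36 between them, adjusted p = 0.145). Neurod6, a bHLH factor of a VTA subtype, had 4.70 and 5.38 in SNc KO and 5.67 and 6.18 in VTA KO (-0.88), against 5.54 and 5.45 in SNc WT and 8.20 and 8.45 in VTA WT (-2.83). Here both KO groups were low. Car4, a carbonic anhydrase, had 6.70 and 6.73 in SNc KO and 6.51 and 6.12 in VTA KO (0.40), against 6.36 and 6.29 in SNc WT and 8.06 and 8.02 in VTA WT (-1.71, adjusted p = 0.0165). Nfib, a nuclear factor I protein, kept a log2 difference of -0.84 in KO (adjusted p = 0.170) beside -1.94 in WT. Calb1, calbindin, was high in both KO groups, at 10.04 and 10.44 in SNc KO and 10.33 and 10.39 in VTA KO (-0.12, against -0.71 in WT).

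The 20 SNc and ventral SNc markers had a median of 0.10 in KO and 0.56 in WT. In KO 0 were called, with 6 higher and 5 lower at an unadjusted p under 0.05, and in WT 3 were called higher. Vav3, a guanine nucleotide exchange factor, had 6.75 and 6.63 in SNc KO and 5.89 and 5.77 in VTA KO (log2 difference 0.85, adjusted p = 0.0620, against 1.20 in WT). It passed with an adjusted p of 0.0450 to 0.0486 when arrays were centred on their medians, quantile normalized or filtered at a signal of 120. Lix1 had 0.98 in KO and 1.25 in WT, and Ndnf, a secreted neurotrophic factor, 0.47 in KO and 1.30 in WT. Slc6a3, the dopamine transporter, had 9.85 and 10.17 in SNc KO and 9.48 and 9.55 in VTA KO (0.49, adjusted p = 0.185), close to 0.58 in WT.

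Several ventral SNc markers were at lower signals in SNc KO than in VTA KO. Aldh1a1, the retinaldehyde dehydrogenase that makes retinoic acid in ventral SNc neurons, had 8.33 and 8.69 in SNc KO and 9.78 and 9.45 in VTA KO (log2 difference -1.11, adjusted p = 0.112), against 11.26 and 11.38 in SNc WT and 11.38 and 11.16 in VTA WT (0.05). The KO groups did not overlap, and the WT groups did. Chrna6 and Chrnb3, nicotinic receptor subunits of mDA neurons, had -0.70 and -0.48 in KO (adjusted p = 0.224 and 0.220), beside 0.03 and 0.35 in WT. Sox6, an SRY-box factor that marks ventral SNc neurons, had 6.39 and 6.30 in SNc KO and 6.56 and 6.85 in VTA KO (-0.36, adjusted p = 0.234), beside 0.61 in WT. Rgs6, a regulator of G-protein signalling, had 6.44 on both SNc KO arrays and 5.86 and 6.23 in VTA KO (0.40, adjusted p = 0.301), far below 8.80 and 8.59 in SNc WT and 7.92 and 7.62 in VTA WT. Several genes of both marker lists are known from the study's own comparisons of these samples, so neither their WT differences nor the smaller KO ones are independent evidence.

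**Figure D4:**
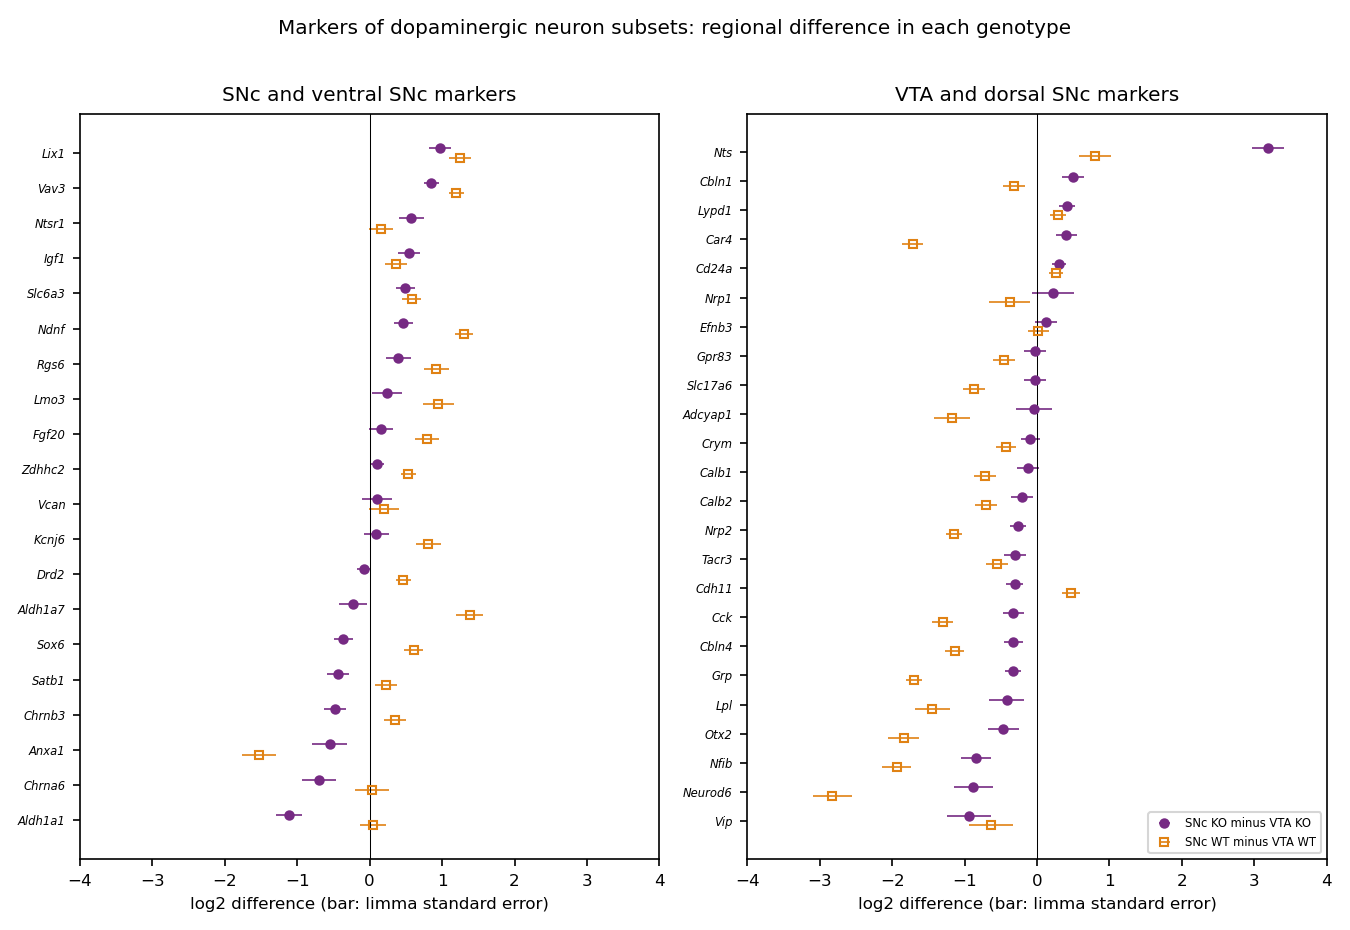
Log2 differences with limma's standard errors for the 20 SNc and ventral SNc markers (left) and 24 VTA and dorsal SNc markers (right), as SNc KO minus VTA KO (filled circles) and SNc WT minus VTA WT (open squares). The KO values of 18 of the 24 VTA markers lie nearer to 0 than the WT values, Nts at 3.19 lies farthest from 0, and Aldh1a1 has the lowest KO value of the SNc markers.

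Of 75 neurotransmitter receptors 69 were tested and 0 called, with 11 higher (15.9%) and 2 lower (2.90%) at an unadjusted p under 0.05, against 11.7% and 4.95% over all genes, and a median of 0.05. Grm3, a metabotropic glutamate receptor coupled to Gi/o, had 9.43 and 8.92 in SNc KO and 8.35 and 7.64 in VTA KO (log2 difference 1.18, adjusted p = 0.168), with 1.05 in WT. Sstr2, a somatostatin receptor, had 8.02 and 7.66 in SNc KO and 6.66 and 6.80 in VTA KO (1.11, adjusted p = 0.107), with -0.03 in WT. Gabrg1, a GABA-A receptor subunit, had 8.24 and 7.98 in SNc KO and 7.12 and 7.34 in VTA KO (0.88, adjusted p = 0.107), with 0.01 in WT. In WT, Sstr2 and Gabrg1 were thus at like levels in both regions.

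Synaptic organizers and adhesion genes (45 tested of 46) had 0 called, 11 higher (24.4%) and 1 lower (2.22%) at an unadjusted p under 0.05, and a median of 0.16. Slitrk1, a postsynaptic adhesion protein, had 8.54 and 8.14 in SNc KO and 7.15 and 7.47 in VTA KO (1.03, adjusted p = 0.123). Cbln2, a secreted neurexin ligand, and Nxph1, neurexophilin, had 0.96 and 0.72 (adjusted p = 0.114 and 0.121). Among 56 axon guidance genes 48 were tested and 0 called, with 11 higher (22.9%) and 3 lower (6.25%) by the unadjusted p, led by Sema3c, a secreted semaphorin, at 7.36 and 6.95 in SNc KO and 6.17 and 6.03 in VTA KO (1.06, adjusted p = 0.121). Cadherins and protocadherins had 0 called and 5 higher and 1 lower of 25 tested by the unadjusted p, with Cdh12 at 0.99 (adjusted p = 0.168). Of 29 cyclic nucleotide enzymes tested, 0 were called, and 6 were higher and 0 lower by the unadjusted p, with Prkg2, a cGMP-dependent kinase, at 1.45 (adjusted p = 0.156) and Pde4b, a cAMP phosphodiesterase, at 0.62 (adjusted p = 0.119).

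Of 27 Wnt pathway genes tested (37 on the array), Tcf7l2 was the only one called, and the median was -0.07. Of 53 neurotrophic, growth factor, activin and BMP genes tested, 0 were called, and the unadjusted p gave 5 higher and 2 lower. Igfbp3, a carrier of insulin-like growth factors, had 7.57 and 7.69 in SNc KO and 6.53 and 6.41 in VTA KO (log2 difference 1.16, adjusted p = 0.0693), and passed with a signal filter of 120 (adjusted p = 0.0484). In the retinoic acid list, where 0 of 13 tested genes were called, Crabp2, a carrier of retinoic acid, had 7.33 and 7.82 in SNc KO and 6.64 and 6.55 in VTA KO (0.98, adjusted p = 0.134), the direction opposite to that of Aldh1a1. Potassium channels (by the unadjusted p 3 higher and 1 lower of 44 tested), sodium, calcium, HCN and TRP channels (5 and 0 of 29), RGS proteins (5 and 0 of 20), apoptosis genes (2 and 1 of 20) and immediate early genes (0 and 1 of 19) had 0 called each, with medians of -0.01 to 0.17. The same held for dopamine synthesis, storage and receptor genes (1 higher and 1 lower of 17), where Drd3, a dopamine autoreceptor and limbic receptor, had 5.60 and 5.59 in SNc KO and 6.34 and 5.95 in VTA KO (-0.55, adjusted p = 0.225), and for genes of familial Parkinson disease (1 and 0 of 12), where Sncb, beta-synuclein, had 8.34 and 8.39 in SNc KO and 7.90 and 7.71 in VTA KO (0.55, adjusted p = 0.185).

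Oxidative phosphorylation genes, which make up the respiratory chain, had small differences, nearly all above 0. Of 42, 41 had a log2 difference above 0, as had 8037 of the 12762 genes. The median of the list was 0.27 beside 0.09 over the 12762 genes, with 0 called and 7 higher by the unadjusted p. Uqcrfs1, the Rieske subunit of complex III, had 9.37 and 9.46 in SNc KO and 8.78 and 9.03 in VTA KO (0.51, adjusted p = 0.181). The median log2 signal of the list was 10.04 and 10.13 in SNc KO and 9.66 and 9.99 in VTA KO. With VTA KO replicate 1 left out, the list's median difference was 0.08, beside 0.06 over the 12762 genes. With VTA KO replicate 2 left out it was 0.39, beside 0.09 over those genes. The gap between the list and all genes thus rested largely on VTA KO replicate 1.

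**Figure D5:**
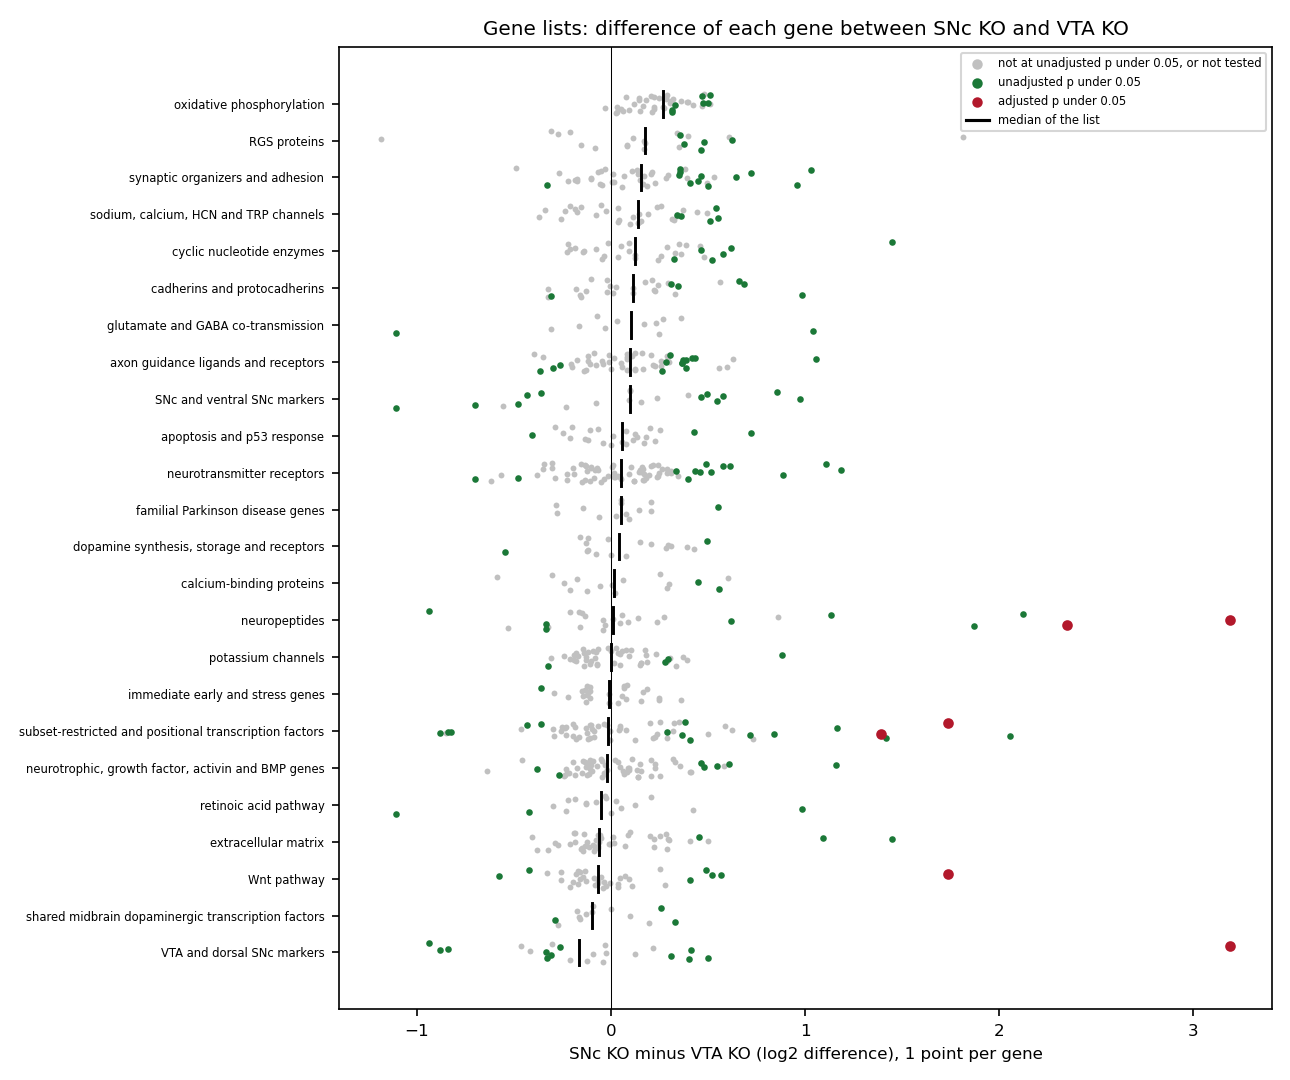
Log2 difference between SNc KO and VTA KO of each gene (points) in 24 gene lists, ordered by their medians (black bars), with genes at an unadjusted p under 0.05 in green and at an adjusted p under 0.05 in red. The called genes in these lists are Nts, Gal, Tcf7l2 and Lhx9, all above 0, and the medians run from -0.17 to 0.27.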

How the data were processed

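Each array came with 1 log2 value per probeset, deposited after RMA background correction, normalization and summary by the authors (RMA Express, version not given in the sources used here). The methods also name an LPE test, which was not used here. Of 35512 probesets, 21789 carried 1 gene symbol, 1621 several and 12102 none in the platform annotation, and 21698 gene IDs matched a table of GRCm38.p6, by which 0 symbols changed. Each value's precision is that of 2 arrays per group.

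Differences were fitted with limma 3.58.1 in R 4.3.3 on all 8 arrays (4 residual and 2.4 prior degrees of freedom), over the 22112 probesets whose mean signal reached 60 in 1 or more of the 4 groups, and tested on simulated data. The contrasts were SNc KO minus VTA KO, SNc WT minus VTA WT, their difference, and their mean, which is not reported. Named genes are the 15 largest called differences in each direction (1 probeset per gene, that of highest mean), filled with those at an unadjusted p under 0.01 whose arrays did not overlap, 5 in each direction for the difference of the regional differences, up to 4 per list, and Pitx3, Th and Rgs6. The members, lists and tests were chosen with earlier results of these data known. The lists comprise 24 of pathways or functions and 15 of cell type markers. They were described by counts and medians with no set test, and lists not described in the text had 0 called genes.

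Alternatives were the KO arrays alone, other signal filters, quantile normalization, median subtraction, a variance trend, array weights, the replicate number as a block, the thresholds of the study, each array left out, and all probesets of a gene averaged. Identical probesets were counted once as an alternative added after seeing the data. The correlation of same-numbered arrays' deviations from their group means was 0.098 between SNc KO and VTA KO and 0.0058 to 0.098 over all pairs of groups, so the numbers were not taken to pair samples. Promoters are RefSeq's, from a table of GRCm38.p6.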

Additional observations from a re-analysis of the deposited data

How the results depend on the processing

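The counts of called probesets in SNc KO against VTA KO (9 higher and 24 lower) fell to 0 in both directions with the KO arrays alone, with no filter on signal and with array weights (1466 higher and 1180 lower at an unadjusted p under 0.05 there). With a signal filter of 120 they were 14 and 32, and at the thresholds of the study 767 and 773. Counting identical probesets once left 12 lower. Quantile normalization, median subtraction, a variance trend and a filter on the KO groups alone gave 8 to 13 higher and 24 to 26 lower. Leaving out 1 array gave 0 to 753 higher and 0 to 575 lower, the maxima without VTA KO replicate 2 and 0 in both directions without any of the other 7 arrays. For the difference of the regional differences, leaving out 1 array gave 0 to 11 higher and 0 to 2 lower, the maxima without VTA KO replicate 1, and the thresholds of the study gave 813 and 677. The cause was not tested.

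With the replicate number as a block (replicate block), 0 higher and 0 lower were called in SNc KO against VTA KO and 0 in the difference of the regional differences, and in the first comparison 2187 higher and 1764 lower had an unadjusted p under 0.05. The labels give the arrays only a number in common.

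Of the 82 genes named with a value and a test, the 13 called ones kept their sign under every alternative run. Their SNc KO and VTA KO arrays did not overlap, so leaving out 1 array could not change the sign, and the kept sign is no measure of stability. Rgs5, Ifitm3 and Calb1, which did not pass, changed sign when 1 array was left out, with a range of log2 differences from -0.22 to 3.85 for Rgs5 and from -0.32 to 1.13 for Ifitm3 (the lowest without VTA KO replicate 2) and from -0.32 to 0.076 for Calb1 (the highest without SNc KO replicate 1). The 13 genes called by their probeset of highest mean lost the call under each setting with 0 calls, and 21 of the 82 gained one without VTA KO replicate 2. Precision is limited by the 2 arrays per group.

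Of the medians of 39 gene lists, 28 values moved by more than their spread. With a signal filter of 120 these were 0.66 for GABAergic, -1.37 for endothelial and -1.0 for cilium markers, 0.37 for RGS proteins, 0.04 for Wnt, 0.31 for cyclic nucleotide, -0.11 for immediate early, 0.14 for neuropeptide, 0.13 for growth factor, 0.12 for potassium channel, 0.03 for retinoic acid and 0.32 for transcription factor genes. Median subtraction gave 0.01 for Wnt, 0.20 for cyclic nucleotide, 0.07 for immediate early, 0.08 for potassium channel and 0.02 for retinoic acid genes, and quantile normalization 0.08 for cyclic nucleotide genes. With 1 array left out, the lists that moved ran from -0.14 (retinoic acid) to 0.98 (pericyte). The spread used here is that of the list medians between the arrays within the KO groups. Leaving out 1 of those arrays can hardly move a median by more than that, so an unmoved list is no measure of stability.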
